A study of Homo sapiens with 6 samples.

Results

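The genes described here make, bind, sense and break down retinoic acid. They are CYP26A1, CYP26B1, DHRS3, RARA, RARB, RARG, CRABP1, CRABP2, ALDH1A3 and RDH10, which is 10 of the 26336 named genes in the deposited tables, and all were found by their symbol. They were chosen with their values after TEAD4 knockdown already known, so those values are given below as a description and carry no test. The comparison of the cell lines with each other is another contrast and was tested, but it averages control and knockdown libraries, so a knockdown change in 1 line enters it. The difference between the controls alone is therefore given beside it.

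Retinoic acid is made from retinol, vitamin A, in successive oxidations. Retinol dehydrogenases such as RDH10 give retinaldehyde, which DHRS3 can reduce back to retinol, and retinaldehyde dehydrogenases such as ALDH1A3 turn retinaldehyde into retinoic acid. CRABP1 and CRABP2 carry retinoic acid in the cell, the receptors RARA, RARB and RARG bind DNA as partners of RXR receptors and switch target genes when the ligand is present, and the cytochrome P450 enzymes CYP26A1 and CYP26B1 oxidize it for removal. In many tissues CYP26A1, DHRS3, RARB and CRABP2 are themselves targets of the receptors, and in the gut retinoic acid is known for its part in epithelial differentiation and mucosal immunity.

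RNA was sequenced from HCT116 and SW620, established human colorectal cancer cell lines. In both lines TEAD4, a transcription factor that carries YAP and TAZ, the effectors of the Hippo pathway, to DNA, was knocked down with short hairpin RNA. HCT116 and SW620 each had 1 library from cells with the pLKO hairpin vector, the control, and 2 libraries labelled as carrying a hairpin against TEAD4. All cells grew in DMEM with serum, with no drug or retinoid named in the labels. The labels call the 2 knockdown libraries of a line shTEAD4-A and shTEAD4-B. Whether the letters stand for different hairpins or for separate cultures is not given. The spread between libraries may therefore be technical or differ by hairpin, and these cannot be told apart. Each line is 1 line, and a difference between the lines cannot be told apart from any other property of either.

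Reads on named genes numbered 15778571 to 18859715 per library. TEAD4 stood at 355 normalized counts in the HCT116 control and at 19.2% and 19.3% of it in knockdown libraries 1 and 2. The SW620 control was at 1140.4, with 23.5% and 20.5% left after knockdown. A normalized count is the number of reads on a gene divided by a size factor of its library, and the authors set those factors within each line's table. The knockdown libraries lay at least 2-fold apart for 20.8% of 14218 genes in HCT116 and for 8.44% of 14211 genes in SW620. Summed over 6 endoplasmic reticulum stress genes, HCT116 held 196645 normalized counts in the control against 37237 and 113218 in knockdown libraries 1 and 2, while SW620 held 32846, 39106 and 33805. The sum of 6 histone genes was 1858, 478 and 946 in HCT116 and 967, 487 and 470 in SW620. Their part in the values below was not tested. Epithelial markers summed to 108571 to 158374 over 10 genes, most of it from the keratins KRT8, KRT18 and KRT19. The intestinal markers LGALS4 (0.9 to 25.6) and KRT20 (7.2 to 53.7) were low in both lines, and in HCT116 so were VIL1 (0 to 2.0) and CDH17 (8.6 to 13.2). Markers of leukocytes summed to 25.5 to 157 and those of endothelium to 16.4 to 56.4, and PTPRC was at 0 in each SW620 library. Fibroblast markers summed to 462 to 1115, of which COL1A1 and LUM made up most.

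Promoter sequence from RefSeq (GRCh38.p14) was looked up for all members, and 9 of 10 matched, with 17 windows from 250 bases before a transcript start to 50 bases after it. Each window was searched on both strands for a direct repeat with a spacer of 5 bases, the classical retinoic acid response element. The half-site at either end began with AG or GG, went on with G or T and ended in TCA, the usual letters of a receptor half-site. The repeat was found for 2 members, RARB and CYP26A1, and in 31 of 35116 promoter windows of the whole table, or 0.0883%. The letters GGAATG, the core of the sequence that TEAD factors bind, were found in 5 windows of 3 members, DHRS3, RARA and RARB, and in 14% of all windows. A repeat with a spacer of 2 bases was in 0 member windows and in 0.0399% of all. The following windows are shown because they hold the response element in a receptor gene and in a breakdown gene, and the TEAD letters in DHRS3. DHRS3 was picked for display with its low SW620 knockdown values known, and whether the letters bear on its level was not tested. Each is the stretch of 100 bases before a transcript start, 5′ to 3′ on the gene's strand. Capitals mark the repeat in RARB (chr3:25428163-25428262, plus strand) and in CYP26A1 (chr10:93073793-93073892, plus strand), where it lies on the opposite strand. In DHRS3 (chr1:12616790-12616889, minus strand) they mark the TEAD letters, also on the opposite strand.
RARB: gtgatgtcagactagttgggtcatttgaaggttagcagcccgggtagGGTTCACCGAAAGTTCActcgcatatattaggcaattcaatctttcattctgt
CYP26A1: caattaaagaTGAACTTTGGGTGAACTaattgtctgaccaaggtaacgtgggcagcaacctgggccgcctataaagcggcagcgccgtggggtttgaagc
DHRS3: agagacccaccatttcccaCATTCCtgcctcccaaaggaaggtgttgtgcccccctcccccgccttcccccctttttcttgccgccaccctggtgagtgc
The RARB repeat ran from base -53 to base -37 of its start and the CYP26A1 repeat from base -90 to base -74. The TEAD letters of DHRS3 lay at -81 to -76. This is 1 of 3 DHRS3 windows, and its transcript start lies inside the span of the gene in GENCODE v29. A match of letters is a description and does not show that a factor binds there.

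In SW620, 9 of the 10 genes were lower than the control in both TEAD4 knockdown libraries, the steepest being the breakdown enzyme CYP26B1 and the retinaldehyde reductase DHRS3. In HCT116 only 3 were lower in both, and RARG and ALDH1A3 were higher in both. The share of all 18743 tested genes that lay below the control in both knockdown libraries was 29.9% in SW620 and 31.4% in HCT116, and above it in both 31.1% and 29.7%. All 10 passed the filter on low genes, a mean of 1 or more normalized counts, CRABP1 through SW620 alone. Since the genes were chosen with these values known, nothing is read from their counts against those shares. With limma, 0 of 18743 genes passed an adjusted p under 0.05 in any knockdown comparison, which is 0% in HCT116, in SW620, over both lines and for the difference between lines. TEAD4 itself did not pass, with a limma adjusted p of 0.356 over both lines and 0.828 in HCT116. The test thus missed the knocked-down gene, so the lack of calls does not show that levels stayed the same. In bulk RNA, fewer cells expressing a gene and less of its RNA per cell cannot be told apart.

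**Figure D1:**
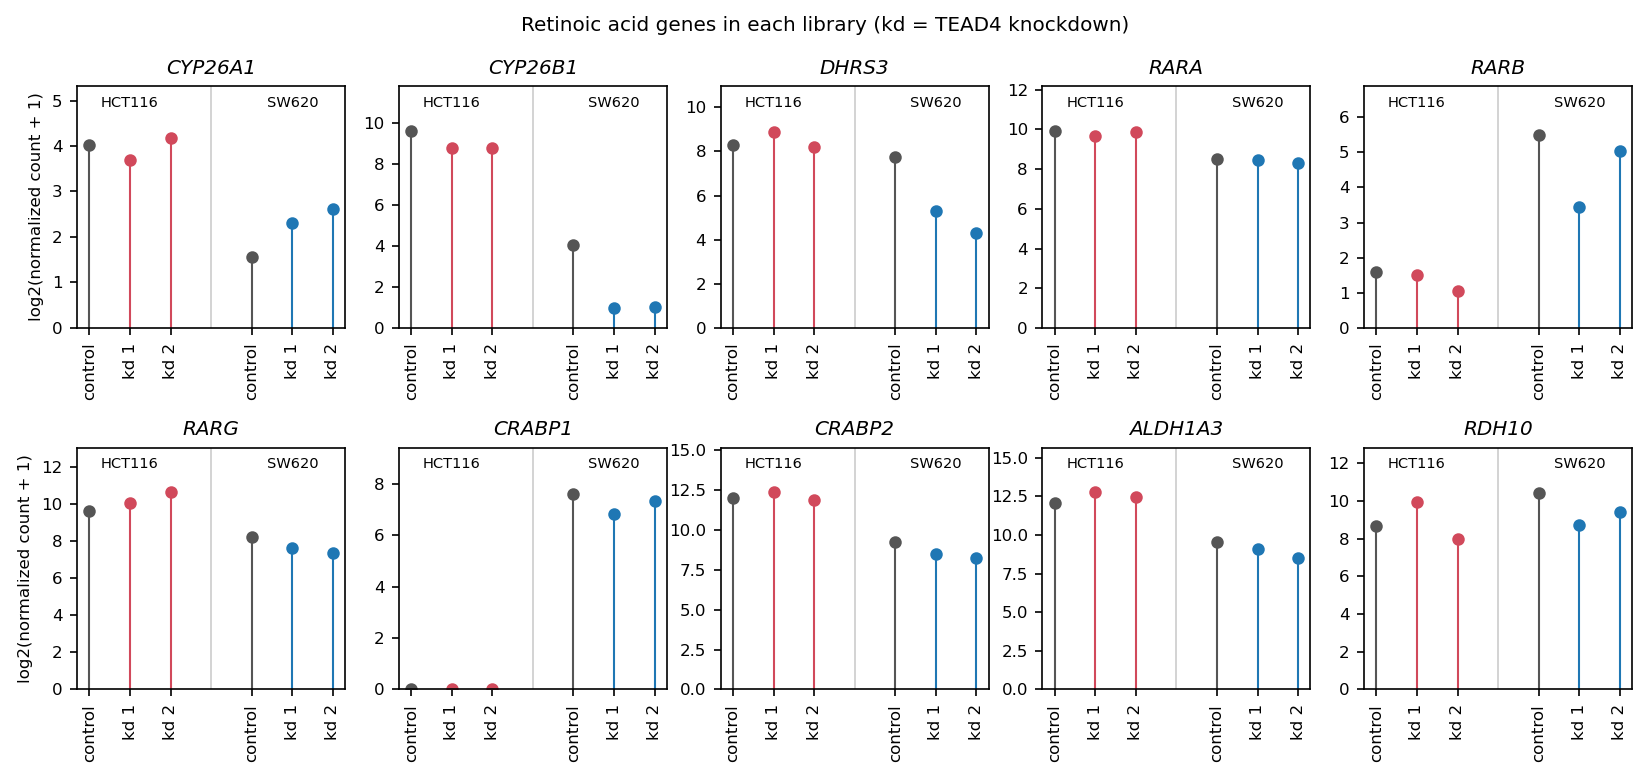
Level of each of the 10 genes in the 6 libraries as log2(normalized count + 1), 1 panel per gene with its own axis and each line normalized on its own, control in grey and TEAD4 knockdown libraries (kd) in red (HCT116) or blue (SW620). In SW620 both knockdown points lie below the control for every gene except CYP26A1, and CRABP1 lies at 0 in all 3 HCT116 libraries.

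Among the genes of synthesis, RDH10, which oxidizes retinol to retinaldehyde, stood at 1402.1 normalized counts in the SW620 control and at 425.0 and 687.0 in knockdown libraries 1 and 2. The HCT116 control was at 407.7 and its knockdown libraries at 979.1 and 250.9. Both SW620 knockdown libraries were low, and the HCT116 control lay between its knockdown libraries. The log2 fold change from limma on log2(normalized count + 1), the scale of all log2 fold changes below, was -1.37 ± 0.85 (SE, 2 knockdown libraries against 1 control) in SW620 and 0.28 ± 0.85 in HCT116. By reads over library totals, SW620 knockdown library 1 held 0.288 of the control level, with a 95% counting interval of 0.258 to 0.321. Library 2 held 0.499 (0.454 to 0.547). Pooled, they held 0.388 (0.358 to 0.420), an interval for counting error only that includes neither library's ratio.

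ALDH1A3, the retinaldehyde dehydrogenase, stood on opposite sides of the control in the lines. It was at 4182.4 normalized counts in the HCT116 control, against 7098.3 and 5563.8 with knockdown. The SW620 control was at 727.4 and its knockdown libraries at 535.7 and 368.1. Both HCT116 knockdown libraries were above their control and both SW620 ones below, with no overlap in either line. The log2 fold change was 0.59 ± 0.35 in HCT116 and -0.71 ± 0.35 in SW620.

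DHRS3, which returns retinaldehyde to retinol, stood at 215.8 normalized counts in the SW620 control, against 38.5 and 18.5 with knockdown, from 221, 39 and 18 reads. The HCT116 control was at 310.1 and its knockdown libraries at 472.3 and 294.9. The SW620 libraries thus kept 17.9% and 8.55% of their control, while the HCT116 libraries held 152% and 95.1% of theirs. The log2 fold change was -2.97 ± 0.61 in SW620 and 0.27 ± 0.61 in HCT116, a difference between the lines of -3.23 ± 0.86. The SW620 reads of both knockdown libraries pooled gave a ratio of 0.131 with a counting interval of 0.0959 to 0.176. Library 1 alone was at 0.170 (0.118 to 0.240) and library 2 at 0.0871 (0.0507 to 0.141). In the authors' deposited table the log2 fold change of DHRS3 is -0.82 in SW620 and 0.20 in HCT116, smaller in size than the values from the normalized counts.

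Of the carriers, CRABP2, which delivers retinoic acid to the receptors, stood at 613.2 normalized counts in the SW620 control, against 353.9 and 295.3 with knockdown. The HCT116 control was at 4042.1 and its knockdown libraries at 5316.7 and 3731.3. The SW620 libraries were both below the control and the HCT116 ones lay on either side of it. The log2 fold change was -0.92 ± 0.33 in SW620 and 0.14 ± 0.33 in HCT116. CRABP1, its paralog, had 0 reads in the HCT116 libraries and stood at 191.4 in the SW620 control and at 111.7 and 158.9 with knockdown. Its SW620 log2 fold change of -0.52 ± 0.66 was smaller than its error.

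Among the receptors, RARA was the steadiest. It stood at 956.6 normalized counts in the HCT116 control and at 810.7 and 925.3 with knockdown, and at 369.1, 347.9 and 310.7 in SW620. Its log2 fold changes of -0.14 ± 0.29 and -0.17 ± 0.29 lay within their errors in both lines. RARG, the receptor best known from skin epithelium, stood at 775.7 in the HCT116 control and at 1064.6 and 1566.5 with knockdown. The SW620 control was at 295.8 and its knockdown libraries at 196.7 and 164.1. Like ALDH1A3 it was above the control in both HCT116 knockdown libraries and below it in both SW620 ones. The log2 fold change was 0.73 ± 0.37 in HCT116 and -0.72 ± 0.37 in SW620, and the difference between them -1.45 ± 0.52.

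RARB, the receptor whose promoter holds the repeat printed above, was low. It had 2, 2 and 1 reads in the HCT116 control and knockdown libraries 1 and 2, and 45, 10 and 31 in SW620. In normalized counts the SW620 levels were 43.9, 9.9 and 31.8. The knockdown libraries differed from each other here. Library 1 held 0.214 of the control by reads (interval 0.0961 to 0.431), and library 2 held 0.736 (0.451 to 1.19), an interval that includes no change.

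Of the breakdown enzymes, CYP26B1 stood at 771.6 normalized counts in the HCT116 control, against 436.8 and 435.3 with knockdown, from 759, 480 and 406 reads. The SW620 control was at 15.6 and each knockdown library at 1.0, from 16, 1 and 1 reads. The HCT116 knockdown libraries lay close together, at 56.6% and 56.4% of their control. By reads over library totals the HCT116 knockdown libraries held 0.622 and 0.494 of the control. Pooled, they held 0.556 (interval 0.504 to 0.613), which includes neither ratio, and the SW620 ones 0.0633 (0.00706 to 0.269). The SW620 interval is wide because it rests on 2 knockdown reads. The log2 fold change was -0.82 ± 0.52 in HCT116 and -3.05 ± 0.52 in SW620, where a pseudocount of 5 in place of 1 gave -1.78. The authors' deposited table gives -0.58 in HCT116 and -0.12 in SW620.

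CYP26A1, the other breakdown enzyme and the one most often used as a readout of retinoic acid signalling, was low in every library. It stood at 15.2 normalized counts in the HCT116 control and at 11.8 and 17.2 with knockdown, and at 2.0, 4.0 and 5.1 in SW620. These SW620 levels rest on 2, 4 and 5 reads, and their ratio of 2.28 had a counting interval of 0.472 to 21.7. The member that stood above its control in SW620 therefore did so at a depth where the difference was not detectable.

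**Figure D2:**
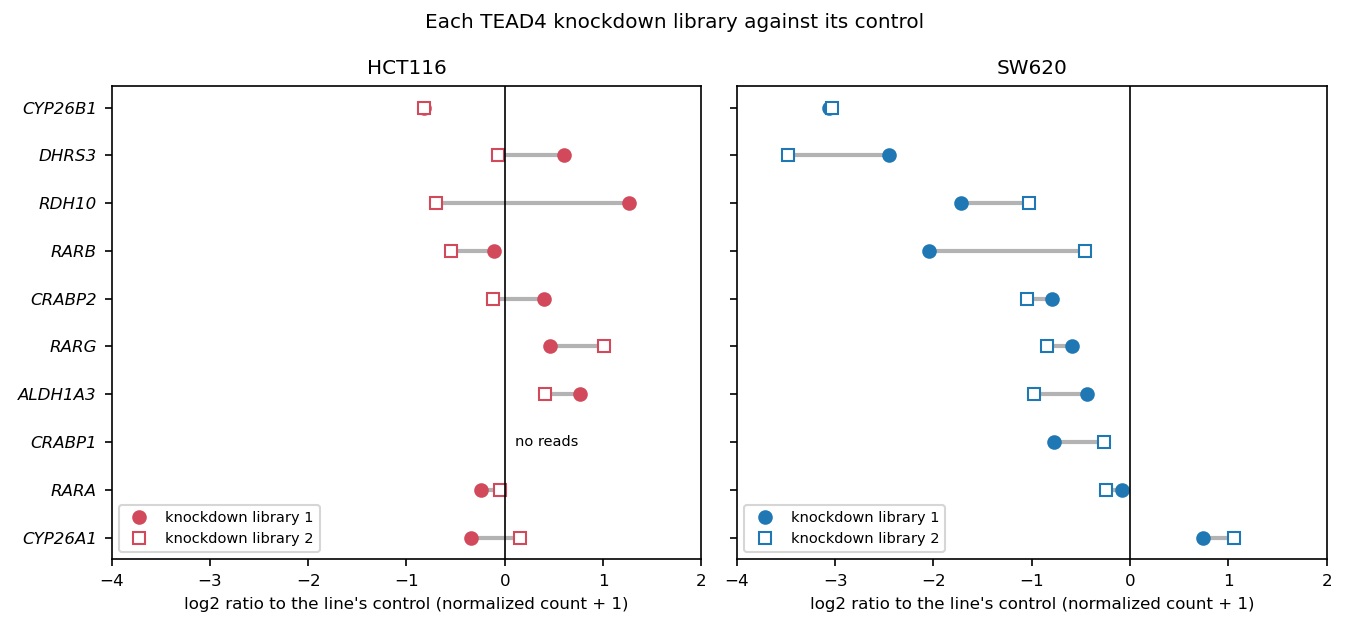
Log2 ratio of knockdown library 1 (filled circle) and library 2 (open square) to the control of the line, on normalized count + 1, for the 10 genes in HCT116 (left) and SW620 (right), ordered by the SW620 values. SW620 points reach -3.48 for DHRS3 and lie left of 0 for all but CYP26A1, while in HCT116 they run from -0.82 for CYP26B1 to 1.26 for RDH10.

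Set side by side, the members' median log2 ratio was 0.20 and -0.06 in HCT116 knockdown libraries 1 and 2, and -0.78 and -0.91 in SW620, where the median over all tested genes was 0 in each library. CYP26B1, DHRS3 and RDH10 lay at least 2-fold below the control in both SW620 libraries, which held for 3.69% of all tested genes. By normalized counts CYP26A1 lay at least 2-fold above the control in both, which held for 3.28%, but by library totals its few reads gave 1.93 in library 1. In HCT116 the count was 0 of 10 in either direction, beside 6.78% of all tested genes that far below and 3.61% that far above. The HCT116 medians differ in sign between the libraries, and RDH10, DHRS3, CRABP2 and CYP26A1 each lay on opposite sides of the control there. Over both lines in 1 model, CYP26B1 had a log2 fold change of -1.94 ± 0.55 and DHRS3 one of -1.35 ± 0.69. Without the SW620 control, the DHRS3 value was 0.27 and the CYP26B1 value -0.82, and without the HCT116 control they were -2.97 and -3.05. Each of these is the fold change of the line that kept its control.

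Within a line, levels can be roughly compared between genes per kilobase of exon (GENCODE v29). The annotation used for counting is not given, so the counted lengths may differ and the order of close values is uncertain. CRABP2 had the highest normalized count per kilobase of the 10 in each of the 6 libraries, 3675 in the HCT116 control and 557 in the SW620 control. In the HCT116 control it was followed by ALDH1A3 at 771, RARA at 230 and RARG at 226. DHRS3 stood at 180, CYP26B1 at 160 and RDH10 at 98.8, and CYP26A1 at 6.14 and RARB at 0.63 were far lower. In the SW620 control the order after CRABP2 was RDH10 at 340, CRABP1 at 248, ALDH1A3 at 134 and DHRS3 at 125. RARA at 88.7 and RARG at 86.2 were next, with RARB at 13.7, CYP26B1 at 3.25 and CYP26A1 at 0.79 at the end. In the HCT116 knockdown libraries RARG stood above RARA, at 310 and 457 against 195 and 222, so the order of these neighbours given above is that of the control only. In both SW620 knockdown libraries DHRS3 ranked behind RARA and RARG, at 22.4 and 10.7 per kilobase.

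The comparison of the lines was made on reads scaled over all 6 libraries together, with line and knockdown as terms in limma. Of all 18759 genes tested, 49.7% passed an adjusted p under 0.05, 25.8% lower and 23.9% higher in SW620, so a call between the lines is common. Among the 16380 genes that reached the filter in each line by itself, 23.9% were called lower and 23.7% higher. Of the 9 members that did so, 8 passed, 7 lower and 1 higher in SW620. CRABP1 reached the filter through SW620 alone, so its call is not counted. Scaled by the authors' size factors within each table, the calls over all genes were 5890 higher and 3896 lower, in place of 4479 higher and 4845 lower, and the median of all genes moved to 0.25 from -0.03 on the log2 scale.

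Of the synthesis and carrier genes, ALDH1A3 and CRABP2 were much lower in SW620 and CRABP1 was seen there only. ALDH1A3 stood at 6135 ± 1535 jointly scaled reads in HCT116 (SD, n = 3 libraries) and at 489 ± 160 in SW620 (n = 3), a log2 difference of -3.67 ± 0.30 (SE) with a limma adjusted p of 6.7e-05. Between the controls alone it was -2.83. CRABP2 stood at 4775 ± 900.4 against 378 ± 150.4, a log2 difference of -3.71 ± 0.27 (limma adjusted p = 4.1e-05), and -3.03 between the controls alone. In the opposite direction, CRABP1 had 0 of 48912827 reads in HCT116 and 464 of 54002479 in SW620, where it stood at 138 ± 35.7 jointly scaled reads. Set against a floor of 3 reads over the HCT116 libraries, CRABP1 was at least 140.1-fold higher in SW620. HCT116 thus had reads of CRABP2 only, and SW620 of both carriers. DHRS3 stood at 393 ± 105 against 81.6 ± 97.2, with a log2 difference of -2.95 ± 0.65 (limma adjusted p = 0.0070). That difference holds the low SW620 knockdown libraries by which DHRS3 was chosen. Between the 2 control libraries alone it was -0.83, a value with no test, as are all those between controls alone. RDH10 overlapped between the lines, at 597 ± 415 against 753 ± 451 (log2 difference 0.39 ± 0.54, limma adjusted p = 0.571). It was 1.47 between the controls alone, and without HCT116 knockdown library 1 its difference was 1.11 (limma adjusted p = 0.018).

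Of the receptors, RARA and RARG were lower in SW620 and RARB was higher. RARA stood at 983 ± 93.2 jointly scaled reads in HCT116 and 308 ± 25.5 in SW620 (SD, n = 3 libraries each), a log2 difference of -1.67 ± 0.19 (limma adjusted p = 3.2e-04), and -1.68 between the controls alone. RARG stood at 1239.8 ± 424 against 197 ± 60.9, a log2 difference of -2.64 ± 0.33 (limma adjusted p = 4.9e-04) that was -1.70 between the controls alone. RARB stood at 1.80 ± 0.57 against 25.7 ± 15.5, a log2 difference of 3.05 ± 0.59 (limma adjusted p = 0.0041), and 3.63 between the controls alone. These receptor calls stand beside the 49.7% of all 18759 tested genes that passed between the lines. Both breakdown enzymes were lower in SW620. CYP26B1 stood at 602 ± 222 against 5.27 ± 7.56, the largest drop among the members, with a log2 difference of -7.25 ± 0.50 (limma adjusted p = 3.5e-05), or -5.84 between the controls alone. CYP26A1 stood at 16.1 ± 2.96 against 3.31 ± 1.45, a log2 difference of -2.04 ± 0.51 (limma adjusted p = 0.012), and -2.71 between the controls alone. This CYP26A1 call was lost without the HCT116 control and without the SW620 control. Both fits gave -1.70, since each then compares the same knockdown libraries, so they are not separate checks.

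**Figure D3:**
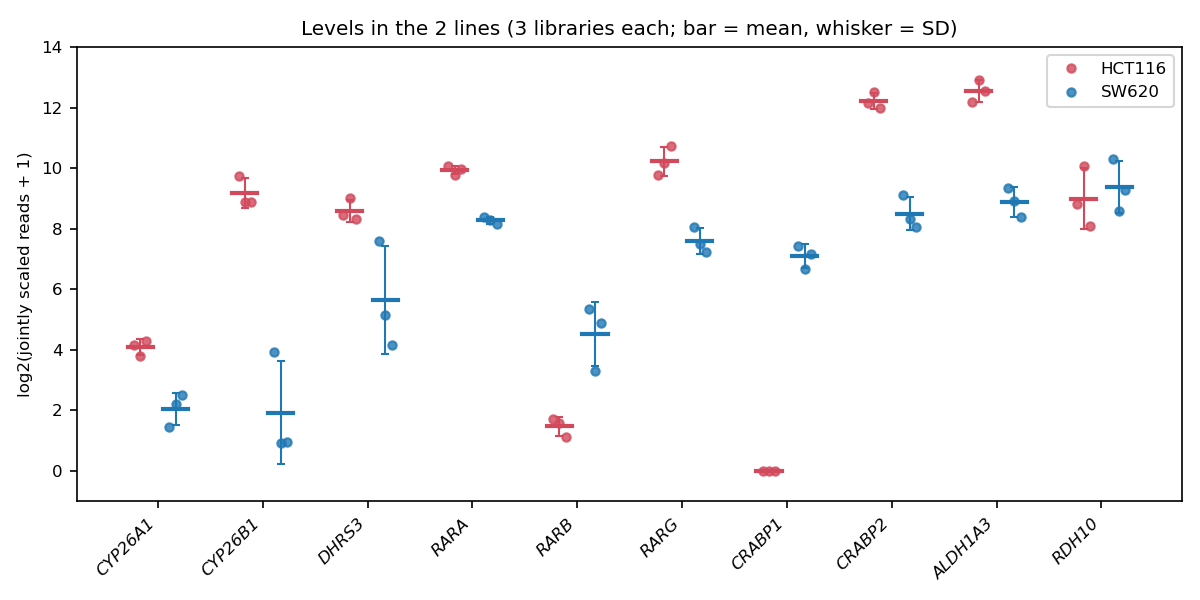
Level of the 10 genes in HCT116 (red) and SW620 (blue) as log2(jointly scaled reads + 1), with 3 libraries per line as points, the mean of the log2 values as a bar and their SD as a whisker. CYP26B1, CRABP2, ALDH1A3, RARG and RARA are lower in SW620, CRABP1 is at 0 in HCT116, and RDH10 overlaps between the lines.

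The kit keeps no strand, so a read on exons that overlap an antisense gene could come from either. In GENCODE v29, exons of RARA (chromosome 17, 40309192 to 40357643) overlap RARA-AS1, and those of RARB (chromosome 3, 25174332 to 25597932) overlap TOP2B on the other strand. CRABP1 (chromosome 15, 78340324 to 78348230) and ALDH1A3 (chromosome 15, 100877714 to 100916626) overlap antisense transcripts known by clone name only, and CYP26A1 (chromosome 10, 93073475 to 93077890) overlaps 1 such gene on its own strand. TOP2B stood at 3886, 3787 and 3435 normalized counts in HCT116, where RARB had 1 or 2 reads. CYP26B1 (chromosome 2, 72129238 to 72148038), DHRS3 (chromosome 1, 12567910 to 12617731), RARG (chromosome 12, 53210567 to 53232980) and CRABP2 (chromosome 1, 156699606 to 156705816) overlap no other gene's exons there. These positions are on GRCh38 and were used only as annotation.

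Other genes of retinoid biology were taken from 7 lists that cover uptake and storage, retinol and retinaldehyde interconversion, synthesis, breakdown, receptors, coregulators and textbook retinoic acid targets. Beside the members they hold 60 genes, all in the tables, of which 47 were tested. The lists too were chosen with earlier results of these data known, so their counts and calls are a description. With limma, 0 of the 47 passed in HCT116, in SW620 or over both lines, where 1036, 272 and 831 of all genes had an unadjusted p under 0.05. As TEAD4 did not pass either, this does not show that they were unchanged. The edgeR test called 0 of the 47, and DESeq2 called 1, over both lines. In SW620, 22 of the 47 lay below the control in both knockdown libraries and 10 above it, beside 29.9% and 31.1% of all tested genes. In HCT116 the counts were 12 and 12, beside 31.4% and 29.7%. Their median log2 fold change was -0.12 in SW620 and -0.07 in HCT116, against 0 and -0.00 for all tested genes. By list, members left out, SW620 had 9 of 14 tested targets below the control in both knockdown libraries and 2 above it, and of 10 coregulators 7 below and 0 above. Uptake and storage had 5 below and 4 above of 10, interconversion 1 below and 4 above of 10, synthesis 2 below and 1 above of 5, and receptors 2 below and 0 above of 3. In HCT116 the counts below and above, in that order of lists, were 4 and 3, 1 and 4, 4 and 3, 5 and 1, 0 and 2, and 0 and 1. CYP26C1, the remaining breakdown gene, was too low to be tested.

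The gene that DESeq2 called was TGM2, tissue transglutaminase and a long-known retinoic acid target. Since its list was chosen with earlier results known, the call is no independent support, and limma and edgeR did not make it. It stood at 1644.9, 868.1 and 587.6 normalized counts in HCT116 and at 613.2, 205.6 and 179.4 in SW620, in the order control, knockdown libraries 1 and 2. All 4 knockdown libraries were below their control, with log2 fold changes of -1.20 ± 0.36 and -1.67 ± 0.36. ALDH1A2, another retinaldehyde dehydrogenase, stood at 90.8, 54.4 and 15.4 in SW620 (-1.61 ± 0.92). RDH14, a retinol dehydrogenase, stood at 48.8, 24.7 and 25.6 there (-0.93 ± 0.62).

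In HCT116, beside TGM2, the list genes with the largest changes among those with a mean of at least 10 normalized counts there were NRIP1, RDH14, STRA6 and RDH16. NRIP1, a corepressor of nuclear receptors, stood at 150.5, 723.4 and 213.4 (log2 fold change 1.38 ± 0.73) and RDH14 at 11.2, 40.0 and 25.7 (1.44 ± 0.62). STRA6, the retinol uptake receptor, stood at 27.4, 20.9 and 2.1 (-1.78 ± 1.16) and RDH16, a retinol dehydrogenase, at 71.2, 20.02 and 34.3 (-1.41 ± 1.02). STRA6 and NRIP1 each had 1 knockdown library far from the other.

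**Figure D4:**
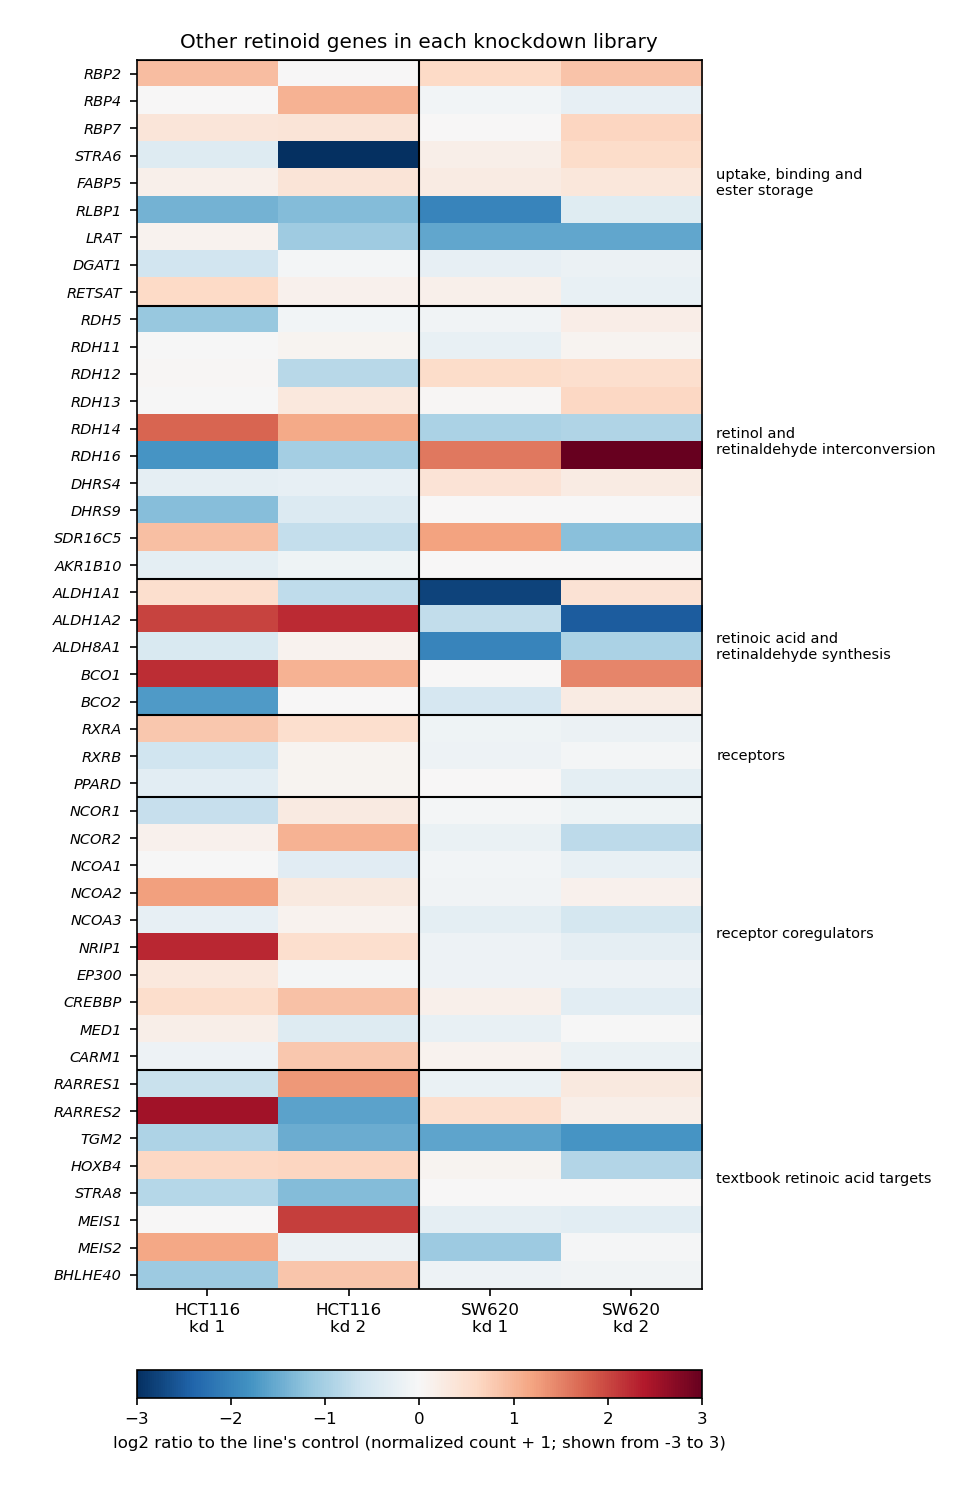
Log2 ratio of each knockdown library to its line's control, on normalized count + 1, for tested genes of the retinoid lists that are not members, grouped by list, with a gene of several lists shown once. Blue is below and red above the control, with colours limited to the range from -3 to 3, and TGM2 is blue in all 4 columns.

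Between the lines, 41 of these 47 genes reached the filter in each line by itself, and of them 12 passed as higher in SW620 and 14 as lower, beside 23.7% and 23.9% of all such genes. RBP7, a cellular retinol-binding protein, was lower in SW620 (log2 difference -6.40 ± 0.39, limma adjusted p = 2.1e-05). LRAT, which stores retinol as esters, had 203, 246 and 91 reads in HCT116 and 2, 0 and 0 in SW620, and DHRS9, a retinol dehydrogenase, 73, 33 and 52 in HCT116 and 0 in each SW620 library. STRA6 was higher in SW620 (6.96 ± 0.74, limma adjusted p = 2.4e-04), as was RARRES2, the chemerin gene (7.65 ± 0.94, limma adjusted p = 4.6e-04).

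Across the 6 libraries, centred on the mean of each line, the genes most like CYP26B1 were CGB7 (Pearson r = 0.998), MYH9 (0.992) and OCEL1 (0.991) among 14961 genes. The 6 points are 3 libraries of each of 2 lines, and 49 genes had an r over 0.95, so the likeness is a description only. MYH9, non-muscle myosin heavy chain, stood at 17025, 15760 and 15551 normalized counts in HCT116 and at 17282, 12804 and 12268 in SW620.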

How the data were processed

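RNA from 6 libraries was analysed from 1 deposited table per line. Its values are a signal, the normalized count, for which the authors divided the reads of every gene by a size factor of the library, as the deposited values show. Reads recovered from these values were whole for 100% of them (tolerance 1e-06). The authors' deposited tables also give log2 fold changes, a score (the fold change over its standard error) and p-values, per the file headers. Bowtie 0.12.2 and hg18 stand in the submitters' processing notes, with roles not stated. How reads were counted, and on which annotation, is not given in the sources used here. Per the labels' protocols, the TruSeq RNA kit was used for library construction. The tables number the knockdown libraries 1 and 2, which the labels call A and B, and the numbers are not matched to the letters. Of 26364 features, 28 with date-like names (0.232% to 0.262% of reads) were left out.

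Because the tables hold normalized values, limma 3.58.1 (R 4.3.3; eBayes with trend, two-sided) was run on log2(normalized count + 1) for genes with a mean of at least 1, calling genes at a Benjamini-Hochberg adjusted p under 0.05. This scale understates changes of low genes. Each line's change and the difference came from a 4-group fit (2 residual degrees of freedom) that lends the single controls the spread of the knockdown pairs. The model over both lines had a line and a knockdown term (3 residual degrees of freedom). The lines were compared on recovered reads scaled by median-of-ratios over all 6 libraries. Read ratios use library totals, with exact (Clopper-Pearson) 95% intervals that cover counting error only. Alternatives used edgeR 4.0.16 and DESeq2 1.42.0 on recovered reads, other pseudocounts, filters and scalings, and each library left out in turn. The code was tested on simulated data.

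The members and lists were chosen with earlier results of these data known. Named beside the members are TEAD4 and, from the lists, the 5 genes with the largest change in each line and between the lines, at a mean of at least 10, except some that are not reported here. The 3 genes most like a member were sought for CYP26B1, which had the most reads among 4 members set for this (CYP26A1, CYP26B1, DHRS3 and RARB). TOP2B was named after its values were seen, as were the single marker genes. Sequences are from RefSeq, and RDH10 had none in the table used.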

Additional observations from a re-analysis of the deposited data

Results flagged for a closer look

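For 7 genes every knockdown library of one line stood on the other side of its control from those of the other line. The difference of the log2 fold changes (SW620 minus HCT116) was -1.45 ± 0.52 (SE) for RARG, -1.30 ± 0.49 for ALDH1A3, -1.58 ± 1.03 for NRIP1, -2.37 ± 0.88 for RDH14 and -3.75 ± 1.30 for ALDH1A2, all lower in SW620. It was 2.14 ± 1.63 for STRA6 and 3.94 ± 1.44 for RDH16, both higher in SW620. These genes were picked for this pattern, and RARG and ALDH1A3 were chosen with these values known, so the values are a description and the difference was not tested on independent data. ALDH1A2 rests on 1, 8 and 8 reads in HCT116, and RDH16 on 0, 2 and 10 reads in SW620.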

How the results depend on the processing

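In the knockdown comparisons limma called 0 genes under every pseudocount and scaling tried and without each knockdown library in turn, as did edgeR. Leaving out a control was run over both lines only, also with 0 calls. DESeq2 called 15 genes over both lines, 19 in HCT116, 7 in SW620 and 1 for the difference between the lines. Of the members DHRS3 was among the 7, which is no independent support, as it was chosen with these values known. With no filter on low values limma called 545 in HCT116, 12 higher and 533 lower. Calls between the lines ran from 5466 (without the SW620 control) to 10823 when 1 library was left out, and were 5595 without the HCT116 control. RDH10's line difference of 0.39 turned to -0.14 without either control and to -0.01 without HCT116 knockdown library 2, and was 1.11, past the threshold, without library 1. CYP26A1's line call was lost at -1.70 without either control. The line difference between the 2 controls alone, with no test, was -2.71 for CYP26A1 and 1.47 for RDH10. No member's SW620 fold change turned sign under the 12 or 13 alternatives, whereas in HCT116 those of DHRS3, CRABP2, RDH10 and CYP26A1 did without knockdown library 1. For SW620 this says little, since both knockdown libraries of each member lay on the same side of the control. Several alternatives also left the SW620 values unchanged, and the single SW620 control was kept in all of them. Over both lines RARG's value near 0 turned sign in 5 of 14 alternatives. With the authors' size factors in place of library totals, an alternative chosen after seeing the data, 4 and 5 of 9 read ratios in HCT116 libraries 1 and 2 left their counting intervals, and 0 of 10 in SW620. No paired analysis was possible because the deposited columns number the knockdown libraries without matching the labels' letters and the single controls have no counterpart. Depth limits CYP26A1 and CYP26B1 in SW620 and RARB in HCT116, which rest on 1 to 16 reads per library.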
